A study of Aedes aegypti with 3 samples.

Results

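The open chromatin of chromosome 3 of the yellow fever mosquito *Aedes aegypti* comprised 44438 of the 128307 FAIRE peaks called on the AaegL5 genome, or 34.6% of the list (34.4 to 34.9%, exact 95% binomial interval). Members were all peaks that the list places on chromosome 3, whatever their strength, and no measured value was used to choose them. The peaks came from wild-type whole embryos of the strain Liverpool-IB12, collected 49 to 51 h after egg laying, in 3 replicates of a single group. The authors pooled the 3 alignments before peaks were called and used no input control. Every value below therefore belongs to the pool, no spread between replicates can be given, and intervals on shares cover counting error only.

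FAIRE (formaldehyde-assisted isolation of regulatory elements) crosslinks proteins to DNA, shears the chromatin and keeps the DNA that stays in the aqueous phase after phenol extraction. DNA wrapped in nucleosomes is depleted from this phase, so that reads gather at promoters, enhancers and other regions with few nucleosomes. In a whole embryo the signal is an average over all tissues, and a region open in a few cells cannot be told apart from a region that is partly open in many. A peak gives neither the direction of a regulatory effect nor the gene it acts on.

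The list used here holds no digit 3, and the digit 5 stands for both 3 and 5, so chromosome 3 bears the label 5. Positions and strengths were recovered from the order of the peaks and from the arithmetic of the peak caller. A single reading of start and end remained for 11030 chromosome 3 peaks (24.8%), the start was known to within 25 bp for 74.7% and to within 2500 bp for 98.3%, and the widest open range of a start was 22222 bp. Gaps, median widths, coverage, shares of genes with a peak at an end and numbers of clusters and deserts are therefore means over 20 drawn readings. Counts in windows, runs of strong peaks and the places of single peaks use the most likely reading only, without a spread over readings. Positions are printed in full only where a single reading remained. The −log10 p was open by more than 0.1 in 19 peaks and the fold enrichment in 83 peaks. The distance of the summit, the highest point of a peak, from the start was masked too, and its lowest reading was used. A summit can therefore lie left of the true one, and shares by summit position and distances between summits are approximate.

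Chromosome 3 held 108 peaks per Mb over 409.8 Mb, beside 95.4 per Mb on chromosome 1 and 111 per Mb on chromosome 2. Peaks were a median of 976 bp wide (974 to 978 bp over the readings) and covered 12.5% of the chromosome. For each peak the caller compares a pileup, the number of tags that cover the summit once each is extended to 550 bp, with a background, the number expected there. The background is the larger of a genome-wide value and the local tag density in the surrounding 10 kb. The genome-wide value was 37.7 tags, which corresponds to 85.1 M tags in the pool and sets the counting precision of every peak. On chromosome 3 the pileup had a median of 89 tags and ran from 56 to 559, and the background had a median of 44.4 and lay at the genome-wide value in 29.5% of peaks. The median −log10 p was 7.54, with the lowest decile under 4.44 and the highest over 17.5, and the median fold enrichment was 1.88. The medians of chromosomes 1 and 2 were close to these, with a −log10 p of 7.67 and 7.52 and a fold enrichment of 1.89 and 1.86.

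A peak is called strong here if its −log10 p was at least 17.4, the threshold of the strongest decile of the whole list. The nearest chromosome 3 peaks inside and outside that threshold had a −log10 p of 17.423 and 17.422. By construction 10.0% of the list is strong, and on chromosome 3 the share was 10.1% (4474 peaks, 9.79 to 10.4%), which is near that background. Chromosome 1 had 10.8% (10.4 to 11.2%) and chromosome 2 had 9.23% (8.98 to 9.48%). Per Mb this was 10.9 strong peaks, beside 10.3 on each of the others.

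Peaks were densest in the middle of the chromosome. In windows of 10 Mb the density was highest between 190 and 200 Mb, with 141 peaks per Mb, followed by 139 per Mb between 200 and 210 Mb. The lowest windows were 360 to 370 Mb with 82.6 per Mb and 50 to 60 Mb with 82.8 per Mb. The stretch from 160 to 230 Mb, chosen after the windows were seen, held 9153 peaks at 131 per Mb, beside 104 per Mb on the rest of the chromosome. It was no richer in genes, with 15.9 RefSeq genes per Mb beside 15.8 on the rest, and 11.7 protein-coding genes per Mb beside 12.2.

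The local background followed the same profile. Its median was 52.6 tags between 160 and 230 Mb and 42.7 on the rest, and the share of peaks at the genome-wide value was 15.0% and 33.3%. The pileup was also higher in the middle, with a median of 98 tags beside 86, so that the median −log10 p was 7.47 beside 7.56 and the median fold enrichment 1.81 beside 1.88. By these medians single peaks in the middle were thus no stronger than elsewhere, although more tags lay under them and around them. The share of strong peaks there was 9.63% beside 10.2%. With more peaks in all, strong peaks numbered 12.6 per Mb beside 10.6 per Mb. The stretch was not uniform, and between 190 and 200 Mb 12.5% of peaks were strong (10.8 to 14.3%). The part of the local background in the density of peaks was not tested.

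**Figure D1:**
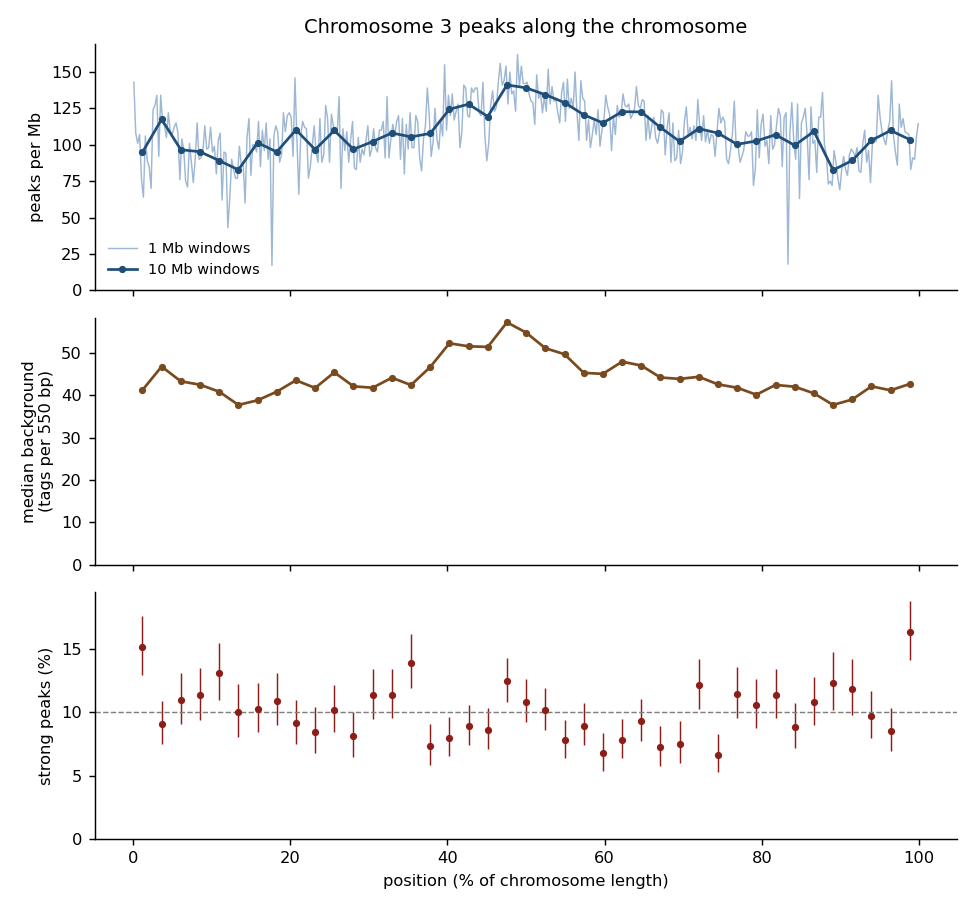
Density, local background and strength of the chromosome 3 peaks against position in percent of chromosome length. The top panel gives peaks per Mb in windows of 1 Mb (thin line) and 10 Mb (points), the middle panel the median background in tags per 550 bp, and the bottom panel the share of strong peaks in windows of 10 Mb with exact 95% binomial intervals, with a dashed line at 10.0%. Density and background are both highest near the middle, at 141 peaks per Mb and 57.3 tags, while the share of strong peaks is highest in the first and last windows, at 15.2% and 16.4%.

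At a finer scale, the 409 full windows of 1 Mb held a median of 109 peaks, with quartiles of 95 and 122 and a standard deviation over windows of 20.5. The highest was the window from 200 Mb with 162 peaks, then those from 191 Mb with 156 and from 162 Mb with 155. Of the 26 windows with at least 140 peaks, 22 lay between 150 and 240 Mb, which holds 90 of the windows. Fewer than 80 peaks were found in 29 windows, and the lowest were those from 72 Mb with 17 peaks, from 341 Mb with 18 and from 49 Mb with 43. The windows from 72 and 341 Mb each held a row of deserts, described below, and that from 49 Mb held a single one.

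The density of peaks was nearly unrelated to that of genes. Over 41 windows of 10 Mb, the peaks per Mb and the RefSeq genes per Mb had a Spearman's rho of 0.10 and a Pearson's r of 0.02. The window from 340 to 350 Mb had by far the most genes, 425, but 99.6 peaks per Mb, and without it rho was 0.14 and r was 0.17. Peaks per Mb and median background had a rho of 0.86 and an r of 0.91 over the same windows. Strong peaks per Mb and genes per Mb had a rho of 0.34 and an r of 0.11. These correlations are descriptions, since neighbouring windows are not independent and all come from a single pool of reads.

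**Figure D2:**
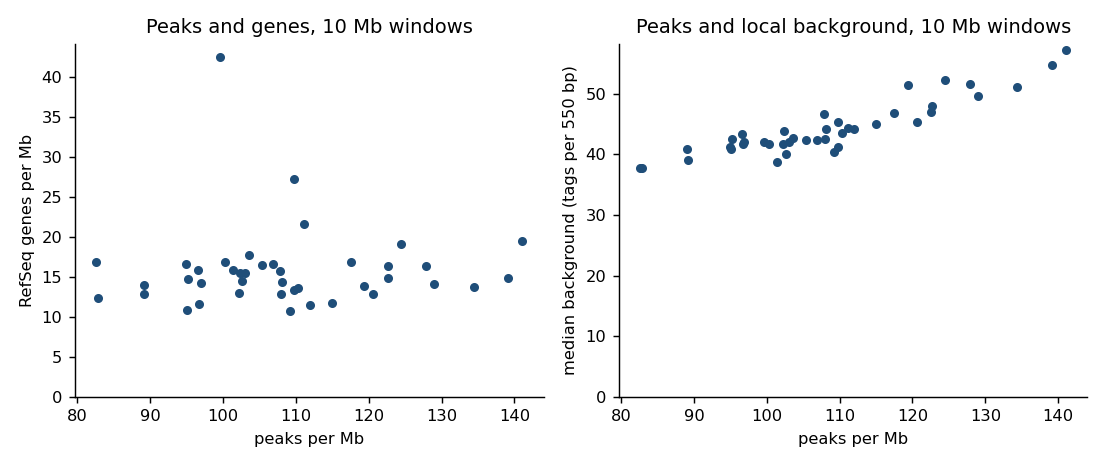
Each point is a window of 10 Mb of chromosome 3, with peaks per Mb on the horizontal axis and either RefSeq genes per Mb (left) or the median background in tags per 550 bp (right) on the vertical axis. Genes and peaks have a rho of 0.10, and the window far above the rest has 42.5 genes per Mb, whereas the background is higher where peaks are denser, from 37.7 to 57.3 tags.

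Neighbouring peaks were separated by a median gap of 5893 bp, measured edge to edge (5887 to 5896 bp over the readings). The quartiles were 2634 and 10185 bp, the lowest 5% of gaps were under 344 bp and the highest 5% over 22953 bp. The coefficient of variation of the gaps was 1.24, beside 1.33 on chromosome 1 and 1.07 on chromosome 2. Median gaps there were 6241 and 5853 bp, so the chromosomes differed more in their long gaps than in their typical ones. Chromosome 3 had 10.9 gaps of 100 kb or more per 100 Mb, against 22.0 for chromosome 1 and 2.86 for chromosome 2.

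The distribution of gaps had a pair of modes. Gaps under 1 kb were the most common, with 6.86% of all gaps below 500 bp and 6.83% from 500 to 1000 bp. Their share then dropped to 2.74% between 3000 and 3500 bp and was higher again between 4500 and 5000 bp, at 5.11%, before a slow decline. Chromosomes 1 and 2 had the same shape, with 2.70% and 2.63% between 3000 and 3500 bp and 4.70% and 5.35% between 4500 and 5000 bp.

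The local background also varied with the distance between neighbours. The window of 10 kb from which the caller takes the local background reaches 5 kb to each side of a position. Between summits 3000 to 3500 bp apart, 16.7% of the peaks had the genome-wide background, compared with 24.4% at 1000 to 1500 bp, 24.8% at 5500 to 6000 bp and 35.8% at 11500 to 12000 bp. Measured between summits, pairs were scarcest at 4000 to 4500 bp, with 2.67% of all pairs, and there 18.7% of the peaks had the genome-wide background. The share at that background was thus low at both distances, and the place of its minimum is given as a description only. The part of the 10 kb window in the shape of the distribution was not tested.

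**Figure D3:**
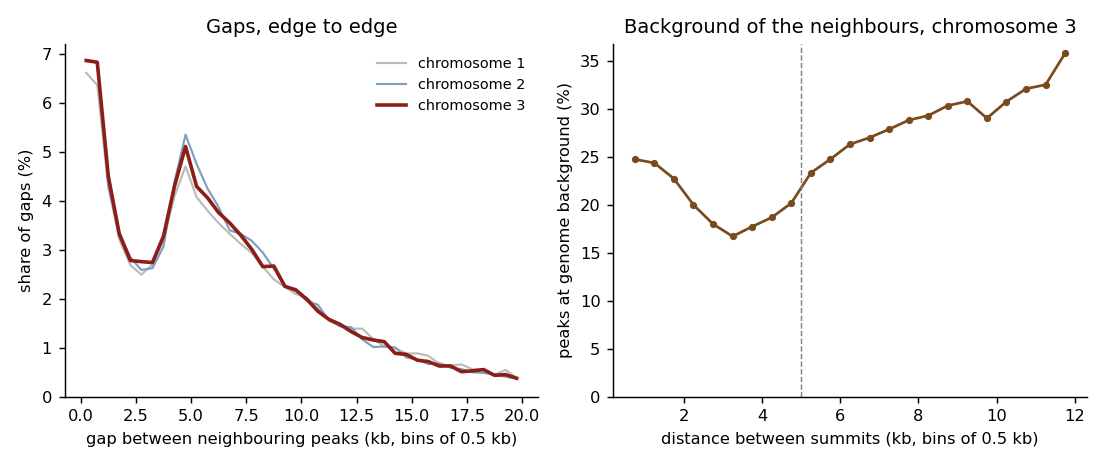
Left, the share of gaps between neighbouring peaks in bins of 500 bp, edge to edge, for chromosomes 1, 2 and 3 (mean of 20 readings). Right, the share of chromosome 3 peaks whose background is the genome-wide value, against the distance from summit to summit, with a dashed line at 5 kb. On chromosome 3 gaps dip to 2.74% near 3 kb and reach 5.11% just under 5 kb, and the share at the genome-wide background is lowest, 16.7%, for summits 3000 to 3500 bp apart, a distance that includes part of both peaks and is not on the scale of the left panel.

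Close neighbours were slightly weaker and narrower than distant ones. Peaks on both sides of a gap under 500 bp had a median −log10 p of 6.71 and a median width of 921 bp, and those beside a gap of 4000 to 8000 bp had 7.86 and 1031 bp. Beside gaps of 20 kb or more the median −log10 p was 8.16 and 55.6% of the peaks lay at the genome-wide background. The strengths of neighbours were nearly unrelated at every distance, with a Spearman's rho of the −log10 p between 0.07 and 0.13. The background of neighbours had a rho of 0.88 under 500 bp and 0.29 at 20 kb or more, and neighbours share tags of the same 10 kb windows.

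Dense clusters were rare under a narrow definition and common under a wide one. With gaps of at most 2 kb, 40.3% of chromosome 3 peaks had a neighbour, mostly as pairs. Runs of 3 or more held 7.59% of peaks. Runs of 5 or more numbered 9.25 (8 to 11 over the readings) and held 0.104% of peaks, and none reached 10. Per 100 Mb this is 2.26 such clusters on chromosome 3, beside 1.43 on chromosome 1 and 2.26 on chromosome 2. All 8 clusters of the most likely reading held exactly 5 peaks over 5.7 to 10.7 kb. The cluster with the highest single peak began at 23.79 Mb across the protein-coding gene LOC5576649, where the 5 peaks had a −log10 p of 10.6, 5.07, 19.9, 8.35 and 16.5. Its local background of 72.0 to 115 tags was also the highest of the 8.

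With gaps of at most 5 kb, 730.3 clusters of 5 or more peaks held 9.46% of chromosome 3 peaks. The largest had 16 peaks over 67.0 kb from 202.69 Mb and touched the protein-coding genes LOC5572482 and LOC5572481 and the long non-coding RNA (lncRNA) gene LOC110678031. Its peaks ranged from a −log10 p of 3.51 to 33.1, and 3 of them were strong. The next had 14 peaks over 53.2 kb from 195.49 Mb, also with 3 strong peaks, and touched LOC5578296, LOC5568516, LOC5569016 and the lncRNA gene LOC110678324. A pair of clusters of 11 peaks began at 123.08 Mb across LOC5569095 and LOC5569092 and at 300.5 Mb, 12.0 kb from the nearest gene, LOC110678523, and had no strong peak. A cluster of 10 peaks at 15.81 Mb touched LOC5568050. Peaks in the 5 kb clusters were weaker as a group, with a median −log10 p of 7.10 beside 7.62 for the other peaks and 7.96% strong beside 10.3%. Their background was higher, at 48.7 beside 43.9 tags, and 35.0% of them lay between 160 and 230 Mb, beside 19.1% of the others.

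Deserts, taken as gaps of at least 100 kb, numbered 44.8 on average (43 to 46 over the readings) and took up 1.60% of the chromosome. Most were between 100 and 200 kb, and only the 2 longest exceeded 200 kb. Peaks at their borders had a median −log10 p of 9.08, and 74.2% of them lay at the genome-wide background, beside 29.5% of all chromosome 3 peaks. Deserts were not empty of genes. The 46 deserts of the most likely reading held 282 whole genes, of which 229 were protein-coding, or 41.8 per Mb beside 15.8 per Mb on the chromosome. Most of these genes belonged to a single array, described next, with deserts of 112, 50 and 27 genes. The value per Mb therefore does not describe the other deserts, and 11 deserts touched no gene.

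The longest desert ran for 598 kb (578 to 598 kb over the readings) from 341.53 to 342.13 Mb and held 112 genes, of which 105 were protein-coding and 6 pseudogenes. It belonged to a row of 4 neighbouring gaps of at least 50 kb that took up nearly all of the 948 kb from 341.18 to 342.13 Mb. The others included deserts of 151 kb from 341.18 Mb, with 50 genes, and of 145 kb from 341.33 Mb, with 27 genes. In all, 204 genes lay within the row, the first from 341186756 and the last up to 342038436, namely 187 protein-coding genes, 16 pseudogenes and 1 lncRNA gene. The protein-coding genes had a median length of 515 bp (quartiles 448 and 656 bp), beside 11288 bp for all protein-coding genes of the chromosome.

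Few of these short genes had a peak of their own. A peak lay at an end of 1 of the 187 protein-coding genes (0.0135 to 2.94%), beside 66.9% (65.5 to 68.2%) of the other 4770 protein-coding genes of the chromosome. The 187 genes were picked because they lay in a row of long gaps between peaks. A low share therefore follows from the choice and is not a separate result about these genes. Only 3 peaks lay within the row, at 341.333 Mb with a −log10 p of 30.5, at 341.479 Mb with 11.3 and at 341.531 Mb with 24.8. The left border was marked by far stronger peaks, at 341.165 Mb with a −log10 p of 87.0 and at 341180295 to 341182204 with 234. The peak at the right border, at 342.13 Mb, had 10.1. The authors removed reads with a mapping quality below 10, which leaves out reads that map equally well to several copies. How many reads of the array were lost in this way was not tested.

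The second desert spanned 576 kb (556 to 576 kb) from 72.04 to 72.61 Mb. It was a different kind of stretch, with 6 lncRNA genes, among them LOC110679393, LOC110679394 and LOC110678686, and the alanine tRNA gene Trnaa-agc, and no protein-coding gene. The nearest genes on its sides were LOC5572709 and the lncRNA gene LOC110679422. A single peak with a −log10 p of 13.6 separated it from 2 further deserts of 133 and 115 kb, so that the window from 72 Mb held 17 peaks and no strong one.

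The third desert, 185 kb from 116.32 Mb, held no whole gene and touched LOC5564357 and LOC5564344. The fourth, 182 kb from 183.64 Mb, lay inside the dense middle of the chromosome between LOC5577326 and LOC5577336 and held 4 protein-coding and 6 lncRNA genes. The fifth, 180.3 kb from 285.02 Mb between LOC110678447 and LOC23687601, held 3 protein-coding and 4 lncRNA genes. The desert of 158 kb from 49.65 Mb touched no gene at all.

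The 20 strongest peaks of chromosome 3 had a −log10 p between 103 and 256 and a fold enrichment between 3.01 and 9.87. The strongest was at 313.6 Mb, with a −log10 p of 256, a fold enrichment of 9.87, a pileup of 414 tags and a background of 41.0. It lay outside genes, 6.26 kb from the protein-coding gene LOC5574943. The gene table gives no descriptions, so genes are named by their RefSeq symbol and kind, and their roles are not stated. Its neighbours within 30 kb included a peak of −log10 p 67.8 at 313.59 Mb and a peak of 21.1 at 313.6 Mb. The second was the peak of −log10 p 234 at the border of the gene array. It crossed an end of the short gene LOC110679765, and its pileup of 518 tags stood over a background of 79.3. The third was at 269.79 Mb inside the span of LOC5577238, with a −log10 p of 189, a pileup of 452 tags and a background of 76.2.

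In the most likely reading, 13 of the 20 strongest peaks were outside gene spans, 5 crossed a gene end and 2 were inside a gene span. By the position of the summit, 38.1% of all chromosome 3 peaks and 1679 of the 4474 strong peaks were outside genes and more than 500 bp from a protein-coding gene end. The peaks that crossed an end included those at LOC110677835, at 129.84 Mb with a −log10 p of 121, and at LOC5578523, at 254470693 to 254472179 with 109. The position of the peak at 129.84 Mb was open by 2020 bp, so its overlap with the gene end is uncertain. Another was at LOC5571882, at 298.03 Mb with 106, where the midpoint lay 79 bp from the gene end. The peak at 215.68 Mb lay inside LOC5570041 with a −log10 p of 126. The peak at 110.29 Mb was 589 bp from LOC5564892. The positions of the peaks at 298.03 and 110.29 Mb were each open by 200 bp. Others were far from any gene, such as the peak at 251.6 Mb, 264 kb from LOC5572144 with a −log10 p of 120. The peak at 262.77 Mb was 95.8 kb from LOC5571120 with a −log10 p of 136.

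Further strong peaks outside genes were at 138.72 Mb, 10.8 kb from LOC5567262 with a −log10 p of 162, and at 198.96 Mb, 27.0 kb from the lncRNA gene LOC110679033 with 144. The latter had a pileup of 284 tags over the genome-wide background. The peak at 295.53 Mb, 6.38 kb from LOC5569833, had a −log10 p of 104.

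Strength by p and strength by fold did not name the same peaks. Of the 20 strongest by p, 12 were among the 20 with the highest fold enrichment, 6 had the genome-wide background and 9 a background at least 2 times as high. The peak at 201.83 Mb, 36.4 kb from LOC5578821, shows the difference. It had the highest pileup of the chromosome, 559 tags, over a background of 185 tags, and hence a −log10 p of 108 at a fold enrichment of 3.01.

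Of the 20 strongest peaks, 6 lay in a pair of places. At the left end of the chromosome, 3 peaks followed each other within 34 kb. Near 339.0 Mb, 131 kb from the nearest annotated gene, the lncRNA gene LOC110678687, a run of 5 strong peaks spanned 12.7 kb. The 5 peaks had a −log10 p of 142, 164, 31.7, 110 and 39.4, and those of 164 and 110 lay at 338999841 to 339001619 and 339007717 to 339008941. Their background was 97.6 to 124 tags, more than the highest decile of the chromosome, which began at 64.6 tags. The next peak, at 339.015 Mb, had the genome-wide background and a −log10 p of 5.23. With no input control, open chromatin and a locally raised number of copies cannot be told apart at such a place.

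**Figure D4:**
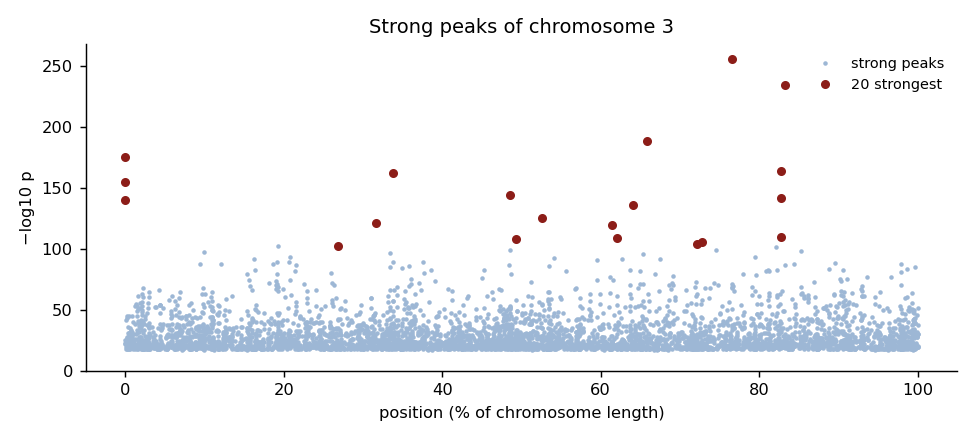
The −log10 p of the 4474 strong peaks of chromosome 3 against position in percent of chromosome length, with the 20 strongest in red. The 20 range from 103 to 256, with 3 at the very left end, 3 close together near 339.0 Mb and none in the last 10 Mb of the right end.

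The share of strong peaks was higher at both ends of the chromosome than on the rest as a whole. In the 10 Mb at the left end 144 of 949 peaks were strong, or 15.2% (12.9 to 17.6%), and at the right end 168 of 1043, or 16.1% (13.9 to 18.5%). The rest of the chromosome had 9.81% (9.52 to 10.1%). With strength taken as fold enrichment, the ends together had 16.1% and the rest 9.81%. The ends were not denser, with 94.9 and 104 peaks per Mb beside 109 on the rest, and their median background of 42.1 tags was close to the 44.6 tags of the rest. Genes numbered 16.6 and 17.3 per Mb at the ends and 15.8 per Mb on the rest. The median −log10 p was 7.93 at the left end and 8.84 at the right, beside 7.54 on the rest. Strong peaks numbered 14.4 and 16.8 per Mb at the ends and 10.7 on the rest. Some inner windows had similar values, with 17.6 strong peaks per Mb at 190 to 200 Mb. At 140 to 150 Mb 13.9% of peaks were strong (11.9 to 16.2%).

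With both ends pooled, the higher share was found in each range of distance up to 10 Mb. The interval of the outermost 1 Mb includes the share of the rest. In that outermost 1 Mb the left end alone had 10.5% strong (5.99 to 16.7%) and the right end 16.5% (10.25 to 24.6%). Within 1 Mb of an end 13.2% of 258 peaks were strong (9.30 to 17.9%), at 1 to 2 Mb 20.6% (15.4 to 26.6%), at 2 to 5 Mb 14.3% (11.5 to 17.6%) and at 5 to 10 Mb 16.0% (13.7 to 18.4%). At 10 to 20 Mb the share was 8.89% (7.75 to 10.1%), and at 20 to 50 Mb it was 11.5% (10.7 to 12.4%), above the 10.1% of the chromosome. At 150 Mb and beyond 1241 of 13785 peaks were strong (8.53 to 9.49%). On chromosome 1 the left and right ends had 12.6% (10.5 to 15.0%) and 22.4% (19.4 to 25.6%), and the interval of the left end includes the 10.8% of that chromosome. On chromosome 2 they had 13.5% (11.5 to 15.6%) and 14.9% (12.8 to 17.1%), beside 9.23% of the chromosome.

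The ends differed from each other in their outermost peaks. At the left end the first peak began at base 181, and the first 5 peaks, all within 34 kb, were strong. Their −log10 p was 21.9, 25.5, 140, 155 and 176, and the last 3 were the 3 strongest within 10 Mb of this end. The peak of 140 crossed an end of the lncRNA gene LOC110678785. The peaks of 155 and 176 lay outside genes, the latter 6.90 kb from the protein-coding gene LOC5566684. The peaks of 140 and 155 had the genome-wide background, with a pileup of 279 and 296 tags. After these 5 no further peak of the first 100 kb was strong. Next in strength at this end were peaks at an end of LOC5570204, at 9.23 Mb with a −log10 p of 67.8, and inside LOC5571898, at 8.82 Mb with 62.9.

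The right end had no peak of that size. In its last 100 kb 5 of 13 peaks were strong, the highest with a −log10 p of 51.3, at 89.4 kb from the end, and the last peak had 19.3. The strongest peaks of the right 10 Mb were 1.48 to 8.90 Mb from the end and had a −log10 p of 70.0 to 87.7. Of the 5, 3 lay between 400.88 and 400.98 Mb, where 11 peaks followed each other. The peak of 81.0 there crossed an end of the lncRNA gene LOC110679698 in the most likely reading, but its position was open by 2000 bp. Those of 87.7 and 70.0 were 104 and 91.8 kb from that gene. The other peaks were at 408.3 Mb across an end of LOC5569142, with 85.1, and at 404.15 Mb inside LOC110679839, with 83.8.

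Some strong peaks within the chromosome lay close to each other. Neighbouring strong peaks were a median of 49.4 kb apart, and 1235 of the 4474 (27.6%) had another within 10 kb. Such runs had 3 or more strong peaks in 97 places and 5 or more in 8. The longest run had 8 strong peaks among 9 over 27.7 kb from 201.8 Mb, outside any annotated gene. Their −log10 p ranged from 20.4 to 108 and their background from 44.4 to 185 tags. Runs of 5 strong peaks without a weaker one between them also lay at 92.72 Mb across LOC5579293, at 351.12 Mb across LOC23687648 and LOC5580216, and at 380.96 Mb across the pair of genes LOC110679042 and LOC5571933.

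The 1 Mb windows with most strong peaks were of different kinds. That from 78 to 79 Mb held 37 strong peaks of 122, or 30.3% (22.3 to 39.3%), against a background of 10.0%. It held 25 tRNA genes, which encode the adaptors that carry amino acids to the ribosome, and 19 of these overlapped a peak. Of the 37 strong peaks, 12 overlapped a tRNA gene. The tRNA genes there were of several kinds, among them 4 each of Trnas-aga for serine, Trnaa-ugc for alanine and Trnat-agu for threonine. The window from 198 to 199 Mb held 35 strong peaks of 137, or 25.5% (18.5 to 33.7%), with 14 lncRNA genes and no tRNA gene. Its strong peaks overlapped an lncRNA gene in 4 cases. Both windows were picked for their strong peaks. No share over all tRNA or lncRNA genes, or over weaker peaks, is at hand for this overlap. The counts therefore do not link strong peaks to either kind of gene. The median background was 47.5 tags in the first window and 61.8 in the second. Most 1 Mb windows had far fewer strong peaks, with a median of 10.

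Peaks on a raised local background had their own distribution. A background of at least 75.5 tags, 2 times the genome-wide value, was found at 1337 chromosome 3 peaks (3.01%, beside 2.61% on chromosome 1 and 3.45% on chromosome 2). Of these, 649 (48.5%) lay between 160 and 230 Mb, which holds 20.6% of the peaks. The window from 190 to 200 Mb held 199 of them and that from 60 to 70 Mb held 1. The highest background was 255 tags at 253.27 Mb, 28.5 kb from LOC110679175, where a pileup of 486 tags gave a fold enrichment of 1.91. Next came peaks of the run at 201.8 Mb, followed by a peak of 157 tags at 80.28 Mb inside LOC5578022 and one of 156 tags at 358.55 Mb inside LOC5569968.

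Peaks were set beside the 6493 RefSeq genes of chromosome 3. A gene was counted as having a peak at an end if at least 10% of a peak lay within 500 bp outside either end. The gene table gives no strand, so an end can be the promoter side or the far side. Among protein-coding genes, 3193 of 4957 had such a peak, or 64.4% (63.1 to 65.7%), beside a background of 65.3% over chromosomes 1 to 3. The share was 61.6% on chromosome 1 and 68.3% on chromosome 2. Without the array of short genes the chromosome 3 share was 66.9%. By windows of 10 Mb it lay between 56.7% at 360 to 370 Mb and 80.3% at 200 to 210 Mb, apart from 23.9% at 340 to 350 Mb, the window with the array.

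Shorter, non-coding genes had fewer peaks at their ends. Of 1135 lncRNA genes 391 had one, or 34.4% (31.7 to 37.3%), equal to the background of 34.4%. Pseudogenes had one in 23 of 102 cases, or 22.7% (14.9 to 31.9%), beside a background of 24.6%. For tRNA genes the count was 136 of 299, or 45.5% (39.7 to 51.3%), beside a background of 46.4%. Each of these chromosome 3 shares lay near the background.

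**Figure D5:**
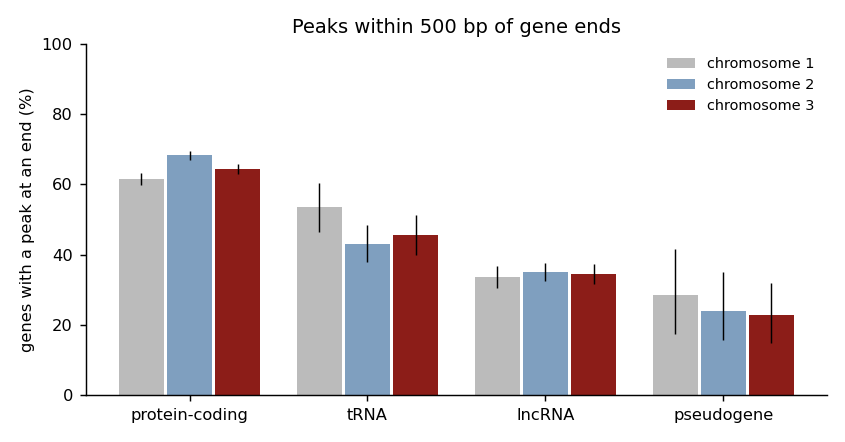
The share of RefSeq genes with a peak within 500 bp outside an end, by kind of gene and chromosome, with 95% binomial intervals (exact, counting error only). On chromosome 3 the shares are 64.4% for protein-coding genes, 45.5% for tRNA genes, 34.4% for lncRNA genes and 22.7% for pseudogenes.

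The share of tRNA genes with a peak at an end varied with the amino acid they serve, beside 45.5% for all 299. The kinds named here are a selection. Alanine tRNA genes, the largest group, had a peak at an end in 8 of 47 cases (7.65 to 30.8%). Leucine tRNA genes had one in 15 of 20 (50.9 to 91.3%), proline in 12 of 18 (41.0 to 86.7%), arginine in 15 of 28 (33.9 to 72.5%) and serine in 21 of 46 (30.9 to 61.0%). The intervals of proline, arginine and serine include the 45.5% of all tRNA genes of the chromosome. Many tRNA genes lie in arrays of like copies and share peaks, so they are not independent. The intervals do not allow for this, and no difference between kinds was tested. The largest array, with genes at most 20 kb apart, had 15 tRNA genes over 53.0 kb from 62652945, of which 7 were for threonine and 5 for phenylalanine, and 4 of the 15 had a peak at an end. An array of 14 tRNA genes at 101.22 Mb, 5 of them for arginine, had 4 overlapping peaks and none that was strong. An array of 7 tRNA genes at 359.44 Mb, 4 of them for valine, had a peak at an end of 6. A short array of 5 tRNA genes over 2.9 kb at 78.98 Mb lay under a single peak with a −log10 p of 35.5 and a background of 83.4 tags.

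Most peaks lay in or between genes rather than at their ends, but those at ends were stronger. Only 1445 summits (3.25%) were within 500 bp outside an end of a protein-coding gene, a zone that makes up 1.19% of the chromosome. Their median −log10 p was 10.4, their median pileup 99.7 tags and their median width 1162 bp, and 26.3% (24.0 to 28.6%) were strong. Inside protein-coding spans, which make up 54.1% of the chromosome, lay 57.5% of summits, with a median −log10 p of 7.45, a pileup of 89 tags, a width of 975 bp and 9.22% strong (8.87 to 9.59%). Outside genes lay 38.1% of summits on 43.4% of the chromosome, with a median −log10 p of 7.66 and 9.90% strong (9.46 to 10.4%). The median background was 47.1 tags at gene ends, 45.1 inside spans and 43.3 outside genes. All counts by summit position are approximate, since the lowest reading of each summit was used.

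Long genes held many peaks. Of the protein-coding genes 69.6% had the midpoint of a peak in their span, and 695 had 10 or more. Across these genes, the number of peaks and the length of the gene had a Spearman's rho of 0.86, given as a description. The gene with most peaks was LOC5573800, with 133 over 1094 kb and 8 of them strong, followed by LOC110679012 with 120 over 958 kb and LOC5568022 with 110 over 806 kb. The highest −log10 p in these 3 was 41.2, 50.6 and 41.6. The density in LOC5573800 was 122 peaks per Mb, and among the 8 genes with most peaks it ran from 98.8 per Mb in LOC5576331 to 136 per Mb in LOC5568022.

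Finally, 5 chromosome 3 peaks are candidate AaegL5 matches of AaegL3 fragments that had driven a reporter in transgenic insects, as enhancers do, elements that raise transcription from a distance. The authors also compared the genes near each match in both assemblies. The genes did not correspond for the match at 368.09 Mb. For the match at 315.08 Mb they corresponded only at a further match of the same fragment on another chromosome, so these peaks are less certain matches. Their strengths spread over the range of the chromosome. The peak at 368086710 to 368088017, 547 bp from LOC5564581, had a −log10 p of 19.1 and was the only strong one, at percentile 91.5 of the chromosome 3 peaks. The peak at 246347421 to 246348664, inside LOC5565233, had 15.6 and was at percentile 86.9. The peak at 315.08 Mb, outside genes and nearest to LOC5567364, had 7.87 and was at percentile 53.1.

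The other matched peaks were among the weaker of the chromosome. The peak near 53.45 Mb lay inside LOC5576020 with a −log10 p of 5.68 at percentile 26.9. The peak at 305593809 to 305594529, 2.02 kb from LOC5568767, had a −log10 p of 4.84, a pileup of 107 tags over a background of 69.9 and percentile 15.6. In 3 of the 5 cases an adjacent peak was stronger than the matched peak itself. The share of all chromosome 3 peaks with a stronger neighbour is not at hand, so the count is no trait of the matched peaks. Within 500 kb on either side these 5 peaks had 80 to 129 peaks.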

How the data were processed

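Wild-type whole *A. aegypti* embryos were profiled by FAIRE-seq in 3 replicates. The paper's methods and the submitters' notes say that the authors trimmed reads (Trimmomatic), aligned them (BWA), discarded mapping qualities below 10 (SAMtools), pooled the replicates and ran MACS2 without a control, with a p of 0.01, tags extended to 550 bp and a genome size of 1240 Mb. Their versions were not given in the sources used here. MACS2 was run without a limit on the false discovery rate, and it drops duplicate tags by default. The deposited lists hold a fold enrichment (ratio to the background), the −log10 of p and of q, and a MACS2 score for every peak. The score, as the authors deposited it, is the −log10 p on another scale and was not used. The columns of start, end and summit in the deposited list were counted from 0 and are printed counting from 1.

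Strengths were recovered by solving the pileup and the background from the fold enrichment, (pileup + 1)/(background + 1), and the Poisson p. Readings of the digits with a whole pileup within 0.01 were kept, and 99.998% of the list had such a reading. The choice among them weighed closeness to a whole pileup, to the usual q for that p and to an expected background. That background was the genome-wide value or a whole number of tags in 10 kb, and it was not required. Positions were recovered by a chain over the ordered peaks with widths of 550 to 7000 bp, gaps of at least 98 bp, and weights for widths and gaps taken from the AaegL3 list, from which 20 readings were drawn. The recovery was tested on simulated data, which were the AaegL3 list with its digit 3 replaced. The true start lay between the lowest and the highest start kept for 100% of its 124959 peaks. The true digits were always among those tried, so this was nearly assured. Of the drawn starts, 97.6% lay within 250 bp of the true start. The fold enrichment was off by more than 0.1 in 2 peaks. Gaps of 100 kb or more numbered 357 beside a true 350, and 514 without weights for gaps. The weights came from the same list, so the trial is not independent of them. AaegL3 peaks also lie on pieces of assembly far shorter than chromosome 3, with fewer digits in their positions. The values of the trial therefore need not hold for chromosome 3.

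Clusters were 5 or more peaks with gaps of at most 2 kb, and deserts were gaps of at least 100 kb. Genes were those of the RefSeq table of AaegL5.0, which gives neither strand, exons nor descriptions, so the planned groups by description could not be formed, and no sequence is printed because no genome was used here. The genes named are those at or nearest to the 20 strongest peaks, the 5 strongest within 10 Mb of each end, the 5 clusters with most peaks, the 5 longest deserts and the matched enhancers. Genes at other deserts, runs of strong peaks, windows, tRNA arrays and peaks of high background, and those with most peaks, were chosen after their values were seen. Members and lists were chosen with earlier results of these data known. No test was possible without values per replicate. Intervals are exact 95% binomial intervals (scipy 1.17.1, numpy 2.4.6, pandas 2.3.3), with figures by matplotlib 3.10.9. Other thresholds on p and q, gap and cluster limits, end lengths, windows and rules of overlap were tried as alternatives.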

Additional observations from a re-analysis of the deposited data

How the results depend on the processing

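No paired analysis was possible because the replicates were pooled before peaks were called, and for the same reason no replicate could be left out. The number of chromosome 3 peaks was the same at a q below 0.05 and dropped to 13901 at a −log10 p of at least 10. The median gap was 5933 bp in the most likely reading, 7145 bp from summit to summit, 7092 bp if the −log10 p had to reach 5, and 5902 bp in readings without weights for gaps, an alternative chosen after seeing the data. Clusters numbered 1.05 with gaps of at most 1 kb, 730.3 with 5 kb, 1084 with at least 3 peaks, 0 with at least 10 peaks, and 3.1 where each peak had to reach a −log10 p of 5. Deserts numbered 301 at 50 kb and 2 at 200 kb. The share of strong peaks at the ends was 12.1% with 20 Mb at each end. The strongest percent of the list held 0.959% of chromosome 3 peaks. Genes with a peak at an end were 71.9% with windows of 2500 bp, 62.2% with any overlap, 24.6% with the summit in the window, and 53.9% where peaks had to reach a −log10 p of 5, beside 57.6% in the report's setting for all kinds of gene.

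Of 29 alternatives, 11 stayed within the limits set for each result and 18 moved beyond them. None was labelled as reversed, but most of these values are counts, gap lengths or shares, which have no direction to turn. Spearman's rho of peaks and genes over windows stayed between 0.10 and 0.14, whereas Pearson's r was -0.0065 in windows of 5 Mb, 0.018 in 10 Mb, -0.0043 in 20 Mb and 0.17 in 10 Mb without 340 to 350 Mb. Without replicate values, no difference above can be set against the spread between embryos. Without a control, copy number and mapping cannot be told apart from openness.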
